A study of Arabidopsis thaliana with 6 samples.

Results

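The 10 genes described here build or regulate the cuticular wax of Arabidopsis thaliana. They were taken as a list of loci, chosen with earlier results of these data known, from the 37869 genes of a table of TPM, a relative transcript abundance corrected for length, and 39 of its 76209 transcripts belong to them. Shoots of 3-week-old seedlings of the Col-0 accession were sequenced in 6 libraries, 3 of wild type (WT) and 3 of the mutant sme1-1, written smeb-1 in some labels and sme1 below. All plants grew in vitro on MS medium with sucrose under long days and were harvested under control conditions, so no stress treatment enters the comparison. SME1 encodes a core protein of the spliceosome, and the titles of the mutant libraries carry the letters KO, with no description of the lesion. The labels do not say whether the replicates of a genotype came from separately grown plants, so a p-value speaks only of library-to-library spread, which may be technical.

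Cuticular wax is made in epidermal cells from very-long-chain fatty acids and coats the aerial surface, where it limits water loss. Fatty acids are elongated in the endoplasmic reticulum and then enter either an alkane-forming branch, which gives aldehydes, alkanes, secondary alcohols and ketones, or an alcohol-forming branch, which gives primary alcohols and wax esters. Transcription factors of the MYB and AP2 families raise or lower the genes of both branches, and drought is a known inducer through MYB96 and MYB94.

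The 10 genes were divided by role. CER6 (AT1G68530, KCS6 in RefSeq, chr1:25712414-25715024) and CER2 (AT4G24510, chr4:12660687-12662656) act in elongation. CER1 (AT1G02205, chr1:418416-422579), CER3 (AT5G57800, chr5:23420184-23424117) and MAH1 (AT1G57750, CYP96A15 in RefSeq, chr1:21383812-21385709) belong to the alkane branch. CER4 (AT4G33790, chr4:16204096-16207956) and WSD1 (AT5G37300, chr5:14767426-14770396) belong to the alcohol and ester branch. MYB96 (AT5G62470, chr5:25078991-25081141), MYB94 (AT3G47600, chr3:17539289-17541307) and WRI4 (AT1G79700, chr1:29990336-29993766) are transcription factors. Positions are those of the RefSeq annotation of TAIR10.1.

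In sme1 the level of WRI4 fell 18.8-fold, WSD1 rose from 0.539 to 12.8 TPM, and CER1 rose 2.98-fold. CER6 was also higher, CER3 and CER2 were moderately lower, and MYB96, MYB94 and CER4 did not pass the test. Of the 9 genes that could be tested, 3 were higher and 3 lower at a limma adjusted p under 0.05, against a background of 47.3% of all 20100 tested genes higher and 20.0% lower. Both shares are close to what all genes gave, so the number of wax genes called is not a result about them. MAH1 fell under the filter of 1 TPM on the mean, and WSD1 and CER4, both under 1 TPM in WT, passed it only through sme1. The wax genes had a median log2 change of -0.14, and the median over all tested genes was 0.22, which puts the wax genes' median at -0.35 relative to the median gene. When the libraries were rescaled by median-of-ratios size factors, which moves the median gene to -0.028, 2 wax genes were higher and 4 lower, because CER6 lost its call and MYB94 gained one. Under this scaling 6436 of all 20100 tested genes were higher and 7103 lower, so this count is not a result about the wax genes either. In bulk tissue, fewer cells of a type and less RNA per cell cannot be told apart.

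**Figure D1:**
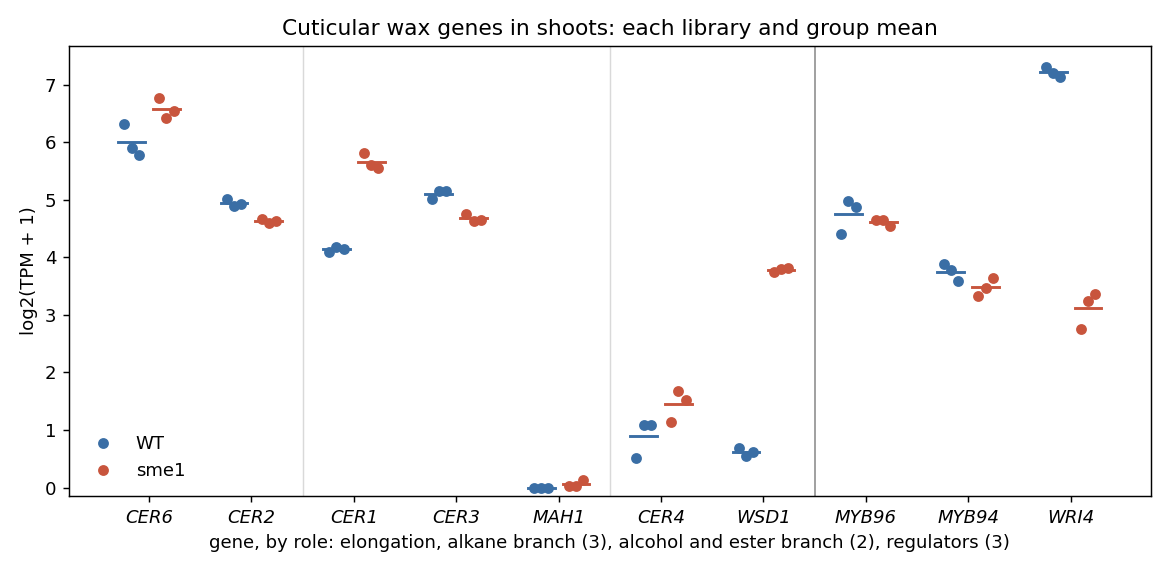
Level of each wax gene as log2(TPM + 1) in the 3 WT (blue) and 3 sme1 (red) libraries, grouped by role; points are libraries and bars are group means. WRI4 has the highest WT level of the 10 and fell by 4.09 in sme1, WSD1 and CER1 stand apart upward, and the libraries of MYB96 and MYB94 overlap between genotypes.

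The targeted gene and the tissue were checked first. SME1 (AT2G18740) measured 76.9, 73.9 and 75.3 TPM in WT and 36.1, 31.6 and 29.7 TPM in sme1, a log2 change of -1.19 (limma adjusted p = 4.36e-05), and the genotypes do not overlap. SME1 RNA was thus lower but still listed in the mutant. Markers of the epidermis, the cell layer that makes wax, summed to 208 to 250 TPM in WT and 181 to 189 TPM in sme1, with 1 of 4 higher and 2 lower. ATML1, which specifies epidermal fate, fell from 43.1 ± 3.67 to 25.6 ± 1.99 TPM (SD, n = 3 each) and FDH from 89.5 ± 11.2 to 67.6 ± 6.13 TPM. FDH, the largest term of the sum, is also in the list of elongation genes followed below. The sum is thus not independent of that list. PDF2, a relative of ATML1 with the same role, rose from 36.4 ± 1.09 to 40.8 ± 1.84 TPM (limma adjusted p = 0.0423), a change that turned to -0.11 on the log2 scale under median-of-ratios scaling. PDF1 measured 55.8 and 50.6 TPM and did not pass. The sums were also lower for guard cell markers (47.8 to 59.1 TPM in WT, 34.4 to 38.0 TPM in sme1, 3 of 4 lower) and trichome markers (56.0 to 70.0 and 41.8 to 45.2 TPM, 2 of 3 tested lower). The guard cell marker FAMA overlapped and did not pass (limma adjusted p = 0.126). TTG1 made up most of the trichome sum, at 58.3 TPM in WT and 38.6 TPM in sme1. GL1 overlapped and did not pass, and GL3, not tested, went the other way, at 0.142 and 0.424 TPM. Over all tested genes 47.3% were higher and 20.0% lower, and these lists are too short to set against those shares. Root markers summed to 4.14 to 7.29 TPM in WT and 31.2 to 61.7 TPM in sme1, and IRT1, an iron transporter of the root epidermis, went from 0.645 ± 0.381 to 18 ± 5.98 TPM. Most of these 9 markers averaged under 1 TPM in WT and passed the filter only through sme1, so no count of calls is given for them. Floral organ markers summed to 3.20 to 5.12 and 6.34 to 8.69 TPM, and no marker of either list was listed at 0 in all libraries. Mesophyll markers summed to 20855 to 22127 TPM in WT and 23281 to 25349 TPM in sme1. The part of these tissue differences in the wax gene results was not tested.

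The order of the genes differed between the genotypes. In WT, WRI4 was the most abundant, followed by CER6. CER3, CER2 and MYB96 came next, and neighbours among these had overlapping ranges. CER1 and MYB94 followed, then CER4 and WSD1 with overlapping ranges, then MAH1. In sme1 the order was CER6, CER1, then CER3, CER2 and MYB96 with overlapping neighbours, then WSD1, then MYB94 and WRI4 with overlapping ranges, then CER4 and MAH1. Since TPM is scaled by transcript length, these orders compare levels between genes. The 10 genes together held 314 to 349 TPM in WT and 237 to 266 TPM in sme1, a difference smaller than the fall of WRI4 alone.

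CER6 is the ketoacyl-CoA synthase that carries most of the elongation of wax precursors in shoots. It measured 78.5, 58.7 and 53.8 TPM in WT and 108.4, 84.9 and 92.5 TPM in sme1. Every sme1 library lay above every WT library, and the first WT library was the highest of its group. The means were 63.7 ± 13.1 and 95.3 ± 12 TPM (SD, n = 3 each), which is 0.59 on the log2 scale, standard error (SE) 0.16 (limma adjusted p = 0.0138). Under median-of-ratios scaling the change was 0.32 and the call was lost (adjusted p = 0.0924).

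CER2 is a protein of the BAHD acyltransferase family that lets the elongation complex make the longest chains. Its level was 31.4, 28.7 and 29.5 TPM in WT and 24.4, 23.3 and 23.7 TPM in sme1. All sme1 libraries lay below all WT libraries, and CER2 fell by 0.32 on the log2 scale (SE 0.06, limma adjusted p = 0.00263), or by 0.58 after median-of-ratios scaling. CER6 and CER2 thus changed in opposite directions on the deposited scale, and the ratio of their levels was 2.12 ± 0.342 in WT and 4.0 ± 0.405 in sme1 (SD, n = 3 each). CER2 shares 316 bases with the gene AT4G07275 on the opposite strand, and 22.041% of its 31-base words also occur in other genes. AT4G07275 measured 17.5, 15.0 and 15.7 TPM in WT and 7.74, 7.50 and 11.3 TPM in sme1, lower in all 3 libraries. A further 96 bases overlap AT4G24520, also on the opposite strand, which measured 85.6, 80.7 and 76.0 TPM in WT and 63.2, 53.2 and 57.3 TPM in sme1, again lower in all 3. The library kit keeps strand, but whether the quantification used it is not stated, so the CER2 value is uncertain to that extent.

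CER1 and CER3 act together to turn very-long-chain acyl-CoA into alkanes, the main wax class of leaves and stems. CER1 measured 16.1, 17.1 and 16.7 TPM in WT and 55.0, 47.6 and 46 TPM in sme1. The groups were far apart compared with the spread within either. CER1 went from 16.6 ± 0.532 to 49.5 ± 4.82 TPM (SD, n = 3 each), a log2 change of 1.52 (SE 0.08, limma adjusted p = 2.52e-05). Of all tested genes, 14.1% were called with a log2 change of at least 1.

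CER3 moved the other way. It measured 31.3, 34.4 and 34.4 TPM in WT and 26.0, 23.8 and 23.9 TPM in sme1, and no sme1 library reached the lowest WT library. CER3 fell by 0.43 on the log2 scale (SE 0.07, limma adjusted p = 0.00124), or by 0.69 after median-of-ratios scaling. In WT the level of CER1 was below that of CER3 in all 3 libraries, at a ratio of 0.499 ± 0.0142, and in sme1 it was above it in all 3, at 2.01 ± 0.10 (SD, n = 3 each). The order of the partners was thus reversed.

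MAH1 is the cytochrome P450 that oxidizes alkanes to secondary alcohols and ketones, products known mainly from stem wax. It was listed at 0 TPM in every WT library and at 0.0203, 0.0221 and 0.0978 TPM in sme1. At these levels no fold is given, and it was not tested.

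WSD1 makes wax esters from fatty alcohols and acyl-CoA. Its level was 0.620, 0.464 and 0.532 TPM in WT and 12.4, 12.9 and 13.1 TPM in sme1. The sme1 libraries were close to each other and all far above WT. WSD1 went from 0.539 ± 0.0780 to 12.8 ± 0.345 TPM (SD, n = 3 each). Its log2 change was 3.17, understated by the added 1 TPM because the WT level is so low (SE 0.08, limma adjusted p = 8.27e-06). The ratio of the means was 23.8. By log2 change it ranked 193 among rises over all tested genes, and 1.14% of genes were called with a log2 change of at least 3.

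CER4 is the fatty acyl-CoA reductase that supplies primary alcohols, one of the substrates of WSD1. It measured 0.423, 1.11 and 1.11 TPM in WT and 1.21, 2.19 and 1.86 TPM in sme1. The groups did not overlap, but the first WT library lay well below the other 2 and the gap between groups was small. The means were 0.883 ± 0.398 and 1.75 ± 0.496 TPM (SD, n = 3 each), with a log2 change of 0.56 (SE 0.21) that missed the threshold (limma adjusted p = 0.0542). It passed without the trend (adjusted p = 0.0485) and without the first sme1 library (adjusted p = 0.0291), and over all alternatives the log2 change ran from 0.06, after quantile normalization, to 0.98. Of the 9 tested wax genes 4 had every sme1 library above WT and 3 had every sme1 library below, where 51.0% and 22.4% of all tested genes did so.

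**Figure D2:**
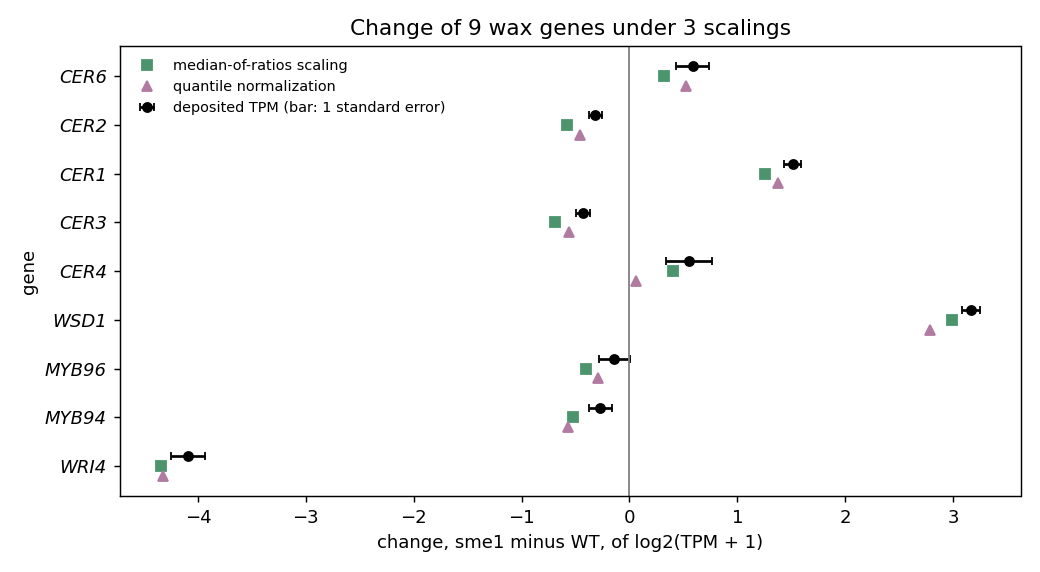
Change of the 9 tested wax genes, sme1 minus WT, in log2(TPM + 1), from the deposited TPM (black circles, bars 1 SE), after median-of-ratios scaling (green squares) and after quantile normalization (purple triangles). No gene changes sign, and the calls that differ between scalings are those of CER6 and MYB94.

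MYB96 and MYB94 are related R2R3-MYB activators that bind promoters of wax genes and raise wax load under drought. MYB96 measured 20.2, 30.4 and 28.2 TPM in WT and 24.1, 24.0 and 22.3 TPM in sme1. The groups overlapped because the first WT library was below all sme1 libraries. The log2 change was -0.14 (SE 0.15, limma adjusted p = 0.428), and -0.40 after median-of-ratios scaling, also not called. Without that WT library the change was -0.31 and passed (adjusted p = 0.0116), while over the alternatives tried the adjusted p ran from 0.0116 to 0.890.

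MYB94 measured 13.7, 12.8 and 11 TPM in WT and 9.05, 10.1 and 11.5 TPM in sme1, with the third sme1 library above the third WT library. Its log2 change was -0.27 (SE 0.11) and missed the threshold (limma adjusted p = 0.0664). It passed under both other scalings, with a log2 change of -0.52 after median-of-ratios scaling (adjusted p = 0.00607) and -0.57 after quantile normalization (adjusted p = 0.0042). It also passed without the third WT library (adjusted p = 0.0334) or without the third sme1 library (adjusted p = 0.0398). The ratio of MYB96 to MYB94 was 2.14 ± 0.579 in WT and 2.33 ± 0.361 in sme1 (SD, n = 3 each), which overlap.

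The 2 MYB genes share sequence near their starts. An ungapped stretch of 79 bases is identical at 71 positions, and its longest identical run, 22 bases, is found in 2 of the 27443 gene promoters examined (250 bases before to 50 after the RefSeq start). It lies from base -206 to -128 of the MYB94 start, chr3:17541435-17541513 on the minus strand, and from base -65 to 14 of the MYB96 start, chr5:25081128-25081206 on the minus strand. The stretches are shown because these are the members whose levels did not separate the genotypes, and capitals mark identical bases.
MYB94: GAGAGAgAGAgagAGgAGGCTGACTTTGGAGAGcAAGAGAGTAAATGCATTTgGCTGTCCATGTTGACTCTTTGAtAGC
MYB96: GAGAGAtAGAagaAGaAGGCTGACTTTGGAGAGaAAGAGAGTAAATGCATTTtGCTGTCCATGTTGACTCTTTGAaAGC
Over the whole transcripts, 2.105% of the 31-base words of MYB96 and 1.96% of those of MYB94 occur in other genes, mostly in each other's transcripts.

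WRI4 is an AP2-family activator known to promote wax synthesis in stems. It measured 157.2, 145.8 and 139.1 TPM in WT and 5.71, 8.46 and 9.33 TPM in sme1. Every sme1 library was far below every WT library. The log2 change was -4.09 (SE 0.16, limma adjusted p = 1.70e-05), the sixth largest fall among the 20100 genes tested, where 0.244% of genes were called with a log2 change of -3 or less. Under 14 alternatives it ran from -4.35 to -3.91 and stayed past the threshold. WRI4 overlaps AT1G79690 by 271 bases and AT1G09907 by 355 bases, both on the opposite strand. AT1G79690 rose from 22.6, 23.6 and 21.5 TPM in WT to 38.2, 34.5 and 34.3 TPM in sme1, opposite to WRI4. AT1G09907 was listed at 0 in 5 libraries and at 0.161 TPM in the sixth, although 15.022% of the 31-base words of WRI4 occur in other genes, mainly in this one.

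Within WRI4 the transcripts did not fall equally. The gene has 15 transcripts, 4 from the Araport11 annotation and 11 that the deposited annotation credits to scallop, a transcript assembler. Of these, 9 were abundant enough to test and all 9 were lower, against 14.5% of 39381 transcripts lower and 29.1% higher. Most of the 9 averaged under 1 TPM in sme1 and passed the filter only through WT. All belong to 1 gene that fell, so this count adds nothing to the fall of the gene. AT1G79700.2, the leading form in WT, went from 57.9 ± 8.61 to 0.831 ± 0.632 TPM (SD, n = 3 each), a log2 change of -5.05 (SE 0.24, limma adjusted p = 4.32e-05). It made up 42.9%, 38.2% and 36.4% of the gene in WT and 27.3%, 5.20% and 5.28% in sme1, lower in every sme1 library but with the first far above the other 2. AT1G79700.3 went from 39.5 to 2.46 TPM and held 26.8% ± 2.45 of the gene in WT and 29.6% ± 11.3 in sme1, which overlap. The assembled transcripts together rose from 27.6%, 27.2% and 32.9% of the gene in WT to 48.2%, 56.1% and 55.4% in sme1, and the genotypes do not overlap. WRI4 shares bases with AT1G79690, which rose, and whether the quantification used strand is not stated. The shares at the low sme1 level are uncertain to that extent.

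**Figure D3:**
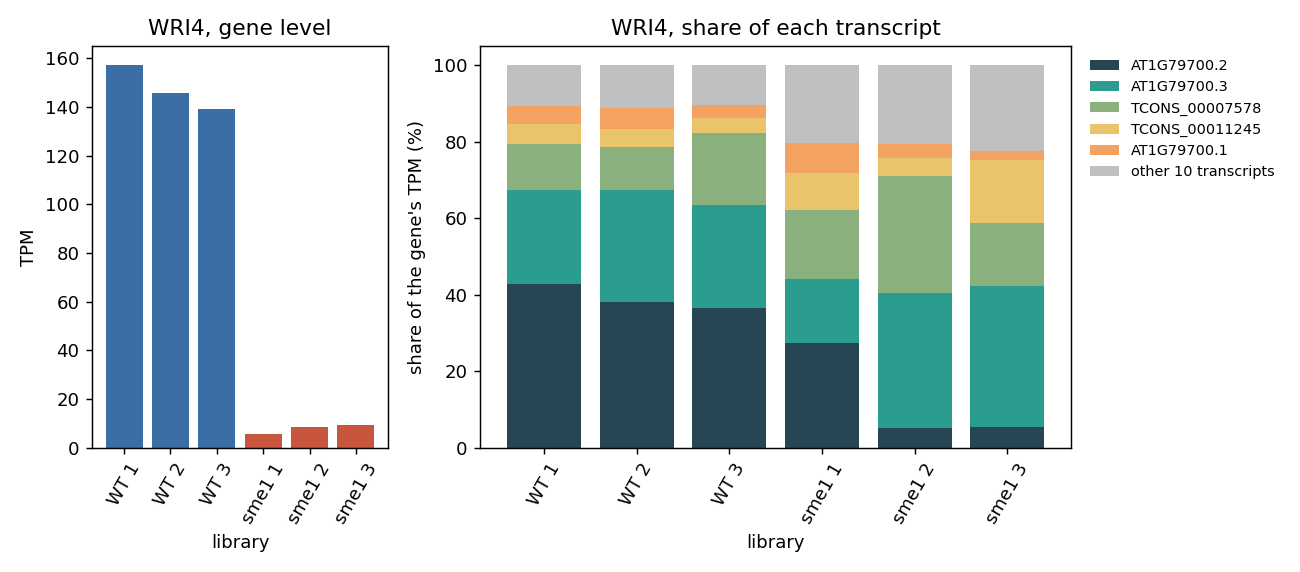
Left, TPM of WRI4 in each library; right, the share of the gene's TPM held by its 5 most abundant transcripts and by the other 10 together. The WT libraries are at 139.1 to 157.2 TPM and the sme1 libraries at 5.71 to 9.33 TPM; the share of AT1G79700.2 is 36.4% to 42.9% in WT and 5.20% to 27.3% in sme1.

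A test of transcript usage, which asks whether the transcripts of 1 gene changed by unequal amounts, could be run for 5 wax genes. WRI4 passed (limma diffSplice adjusted p = 4.21e-08), as did 23.2% of the 9382 genes tested, and it passed under all 10 alternatives, at adjusted p from 3.15e-10 to 0.00363. The log2(TPM + 1) scale compresses transcripts that reach low levels, so with a fall this large equal proportional falls would also appear unequal, and the shares above are the more direct measure. CER1 (adjusted p = 0.0816), CER3 (0.0793), CER6 (0.241) and MYB94 (0.641) did not pass. CER1 passed with a pseudocount of 0.1 (adjusted p = 0.0193).

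In CER1 all 4 tested transcripts were higher in sme1. AT1G02205.1 went from 6.76 to 15.2 TPM (log2 change 1.05, limma adjusted p = 0.00210) while its share of the gene went from 40.6% ± 3.39 to 30.5% ± 3.97. AT1G02205.4 rose from 6.02 to 19.8 TPM and held 36.2% ± 2.54 and 39.9% ± 2.55. AT1G02205.5, the least abundant of the 4, rose from 1.08 to 6.10 TPM, and its share of 6.27%, 4.15% and 9.04% in WT was below its 10.5%, 14.0% and 12.8% in sme1 in every library. AT1G02205.3 rose from 2.72 to 8.38 TPM at a share of 16.3% and 17.1%.

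In CER6, AT1G68530.1 rose from 42.2 ± 10.6 to 69.2 ± 10.6 TPM (SD, n = 3 each; log2 change 0.71, limma adjusted p = 0.0180 and up to 0.0757 under the alternatives, 4 of which lost the call), whereas AT1G68530.2, which keeps the only intron of the gene, went from 21.4 to 26.1 TPM and did not pass (adjusted p = 0.0697). CER3 is carried by AT5G57800.1, which fell from 32.1 to 22.3 TPM (log2 change -0.51, adjusted p = 0.00365). An assembled form of CER3, TCONS_00046109, measured 1.31 ± 1.19 TPM in WT and 2.31 ± 0.754 TPM in sme1, a value opposite in direction to the gene that did not pass (adjusted p = 0.246). It held 3.93% ± 3.45 of the gene in WT and 9.50% ± 3.39 in sme1, with overlapping libraries. An assembled form of MYB96, TCONS_00047331, was at 0.486 and 1.12 TPM and was not tested. WSD1 is carried by AT5G37300.1, which rose from 0.439 to 10.7 TPM (log2 change 3.02, adjusted p = 4.32e-05). AT5G37300.3 was listed at 0 in all WT libraries and held 9.59% to 10.3% of the gene in sme1. Over all 10 genes 23 of 39 transcripts were tested, 6 were higher, 11 lower and 6 did not pass. Of all tested transcripts 29.1% were higher and 14.5% lower. As 9 of the 11 lower ones belong to WRI4, that count largely repeats the fall of 1 gene.

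Because SME1 encodes a spliceosomal protein, introns of the wax genes were examined for retention. A retained share was taken as the TPM of transcripts that keep an intron over the TPM of those that keep it or remove exactly it. It rests on reads apportioned to whole transcripts, not on reads across junctions. The 10 genes have 54 introns in the deposited annotation, and 20 are kept in some transcript. Of the 19 that could be tested, in 7 genes, 1 was retained more in sme1 and none less by limma at an adjusted p under 0.05, against 3.57% of 16029 introns more and 0.824% less. This 1 of 19 is near the background.

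The intron that passed is in WRI4, chr1:29990826-29991803 on the minus strand, the 978-base intron 7 of AT1G79700.2. It was retained at 25.7%, 25.0% and 31% in WT and 44.1%, 52.2% and 45.1% in sme1, higher in every sme1 library. The log2 change of the retained over the removed sum was 1.26 (SE 0.26, limma adjusted p = 0.0490). This call is at the threshold and was lost whenever any 1 library was left out, at adjusted p from 0.0727 to 0.146. In WRI4, 7 of 9 introns had a log2 change above 0, with a median of 0.81, where all tested introns had 0.26. The 141-base intron counts as a fall (-1.52), though its share was 83.9%, 100% and 86.3% in WT and 100% in every sme1 library. Its removed sum was 0 TPM in sme1, so the added 0.1 TPM sets that sign. The 353-base intron, at the median, had overlapping shares of 2.04% to 3.09% in WT and 1.12% to 6.15% in sme1. The count and the median are thus not read as a result. The WRI4 introns share transcripts and are not independent of each other.

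**Figure D4:**
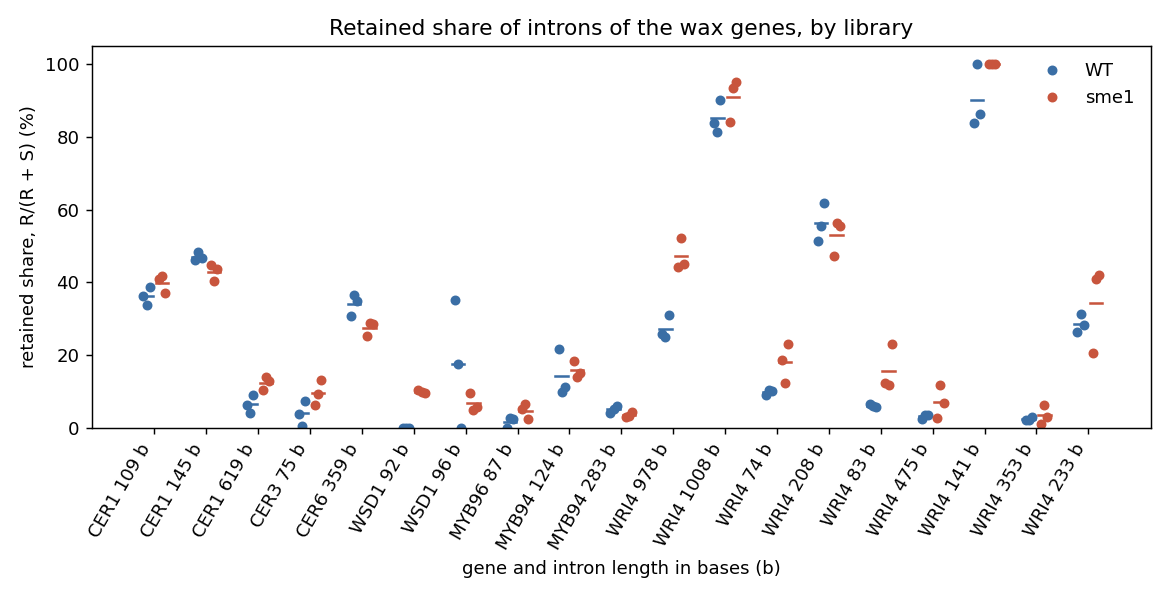
Retained share in percent of the 19 tested introns of the wax genes, R being the TPM of transcripts that keep the intron and S of those that remove it, in 3 WT (blue) and 3 sme1 (red) libraries; bars are group means and labels give intron length in bases. The 978-base WRI4 intron is at 25.0% to 31% in WT and 44.1% to 52.2% in sme1.

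WRI4 also holds an exon of 9 bases, chr1:29993080-29993088 on the minus strand, which is an exon of its own in 8 of the 15 transcripts. Such a short exon is shown because its 2 splice sites are almost adjacent. The intron before it has 233 bases and was retained at 26.4%, 31.2% and 28.4% in WT and 20.5%, 40.9% and 41.9% in sme1, so the libraries overlap and the change did not pass (limma adjusted p = 0.616). In the sequence of chr1:29993040-29993128, read on the minus strand of TAIR10.1, capitals mark the exon.
WRI4 exon: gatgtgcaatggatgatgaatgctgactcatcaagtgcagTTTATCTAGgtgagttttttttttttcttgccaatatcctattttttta

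Introns of the alkane and elongation genes did not pass the test in either direction. The 145-base intron of CER1 was retained at 46.2%, 48.4% and 46.7% in WT and 44.8%, 40.4% and 43.6% in sme1 (limma adjusted p = 0.522). It has the highest mean share in WT outside WRI4, and is printed with 18 exon bases on each side from chr1:419512-419692, plus strand, with the intron in capitals.
CER1 intron: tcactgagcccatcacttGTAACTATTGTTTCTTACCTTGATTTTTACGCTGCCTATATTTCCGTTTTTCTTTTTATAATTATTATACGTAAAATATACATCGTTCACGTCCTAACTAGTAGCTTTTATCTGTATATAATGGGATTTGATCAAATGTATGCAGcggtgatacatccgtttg
The 619-base intron of CER1 was retained at 6.27%, 4.15% and 9.04% in WT and 10.5%, 14.0% and 12.8% in sme1, which do not overlap, but the change missed the threshold (adjusted p = 0.141). Only AT1G02205.5 keeps this intron, so these values are the shares of that transcript given above. The single intron of CER6, 359 bases long, was retained at 30.7%, 36.5% and 34.9% in WT and 25.3%, 28.8% and 28.6% in sme1, lower in every sme1 library and also short of the threshold (adjusted p = 0.293). Retained shares of WSD1 in WT rest on under 1 TPM, so they are not read.

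The promoters of the 3 wax genes that were higher in sme1 are shown up to the base before the RefSeq start, with capitals for motifs searched on both strands. In CER1 that start belongs to AT1G02205.2, at means of 0.055 TPM in WT and 0.053 TPM in sme1. The 4 CER1 transcripts that were tested start further in, from base 418726 to 418767. AT5G37300.1, the main WSD1 transcript, starts at base 14767496, also inside the RefSeq start at 14767426. For these 2 genes the window does not adjoin the annotated starts of the main transcripts. ACGTG, the core of the element through which abscisic acid acts on many genes, occurred in 5 of the 10 promoters and in 26.72% of all 27443. CER1, CER4, CER2 and WRI4 had 1 copy each, and CER6 had 4, as many or more of which occur in 1.651% of promoters. The promoters that hold it include genes that were higher, lower or did not pass. TAACTG, a MYB-type motif, occurred in none of the 10 and in 9.34% of all promoters. The AW-box, a spaced motif bound by WRI1, a relative of WRI4, occurred in WSD1 and in 11.88% of all promoters. A match is a description of letters and not a site of binding. The windows are chr1:418166-418415 (plus strand) for CER1, chr1:25715025-25715274 (minus strand) for CER6 and chr5:14767176-14767425 (plus strand) for WSD1.
CER1: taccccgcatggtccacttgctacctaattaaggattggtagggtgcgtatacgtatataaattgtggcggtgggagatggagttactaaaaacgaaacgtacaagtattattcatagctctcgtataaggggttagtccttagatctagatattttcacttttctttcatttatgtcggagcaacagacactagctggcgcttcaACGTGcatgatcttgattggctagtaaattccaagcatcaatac
CER6: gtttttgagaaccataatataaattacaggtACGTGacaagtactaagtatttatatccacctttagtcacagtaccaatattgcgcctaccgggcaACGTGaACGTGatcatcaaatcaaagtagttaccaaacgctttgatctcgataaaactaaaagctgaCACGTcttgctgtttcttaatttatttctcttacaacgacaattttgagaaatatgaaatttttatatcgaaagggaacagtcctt
WSD1: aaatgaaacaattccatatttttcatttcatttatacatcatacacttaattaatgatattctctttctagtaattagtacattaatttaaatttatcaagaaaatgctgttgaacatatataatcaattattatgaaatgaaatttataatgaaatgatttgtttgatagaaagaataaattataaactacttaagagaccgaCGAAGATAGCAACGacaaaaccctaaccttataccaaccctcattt

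The wax genes sit within a wider set of cuticle genes, for which 79 further genes in 6 lists were followed. Of these 70 were tested, 34 were higher and 15 lower, again near the background of 47.3% and 20.0%. KCS2, ADS4, SHN3 and 1 suberin gene, all called higher, averaged under 1 TPM in WT and passed the filter only through sme1. After median-of-ratios scaling 28 of the 70 were lower, and after quantile normalization 22 were higher and 25 lower. Over all 20100 tested genes these scalings gave 6436 higher and 7103 lower, and 6218 higher and 7201 lower, respectively. The move from rises to falls under them, here and in the lists below, is thus not read as a result about the lists.

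In the elongation list, 8 of 19 genes were higher and 6 lower, with a median log2 change of -0.13. The 6 include FDH, already given as an epidermis marker. KCS5, a close relative of CER6, fell from 11.9 ± 0.604 to 5.94 ± 0.535 TPM and KCS11 from 17.9 ± 0.555 to 9.52 ± 0.621 TPM. KCS2, which acts in suberin as well as wax, rose from 0.890 ± 0.251 to 7.71 ± 2.63 TPM. CER26, a relative of CER2 that serves leaf wax, rose from 27.1 ± 4.37 to 62.0 ± 6.13 TPM, opposite in direction to CER2. LACS1, which activates fatty acids for wax, measured 45.7 ± 7.48 and 41.5 ± 3.23 TPM and did not pass (limma adjusted p = 0.387), but was called lower after rescaling by median-of-ratios factors (log2 change -0.39, adjusted p = 0.0299). After median-of-ratios scaling 5 of the list were higher and 10 lower.

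Among further genes of the 2 wax branches, 6 of the 7 tested, of 9 listed, were higher and none lower, with a median log2 change of 0.37. Over all tested genes 47.3% were higher and 20.0% lower. The 6 include the related genes CB5-B, CB5-C, CB5-D and CB5-E, and with only 7 genes tested the count is not read as a result about the branches. AT3G49210, listed with the wax ester synthases, rose from 3.09 ± 0.395 to 8.68 ± 2.09 TPM. CB5-B, one of the cytochrome b5 proteins that pass electrons to CER1, rose from 18.2 to 23.9 TPM, a call that median-of-ratios scaling removed (limma adjusted p = 0.0984). ADS4, which rose from 0.639 to 1.70 TPM, passed the filter only through sme1. CB5-D rose from 205 to 247 TPM, but its log2 change was -0.0027 after median-of-ratios scaling. CB5-E also lost its call there, at -0.018 (limma adjusted p = 0.743). Under that scaling 3 of the list were higher and 1 lower.

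Of 6 export genes 2 were higher and 1 lower, but 1 was higher and 3 lower under median-of-ratios scaling, and 2 higher and 3 lower under quantile normalization. CER5, an ABC transporter of wax, rose from 54.6 ± 2.40 to 77.8 ± 6.85 TPM, and its partner ABCG11 from 24.2 ± 2.59 to 32.1 ± 3.01 TPM. The rise of ABCG11 did not pass after median-of-ratios scaling. LTPG2, a lipid transfer protein, fell from 32.2 ± 2.08 to 26.0 ± 0.679 TPM. ABCG32, which exports cutin precursors, measured 31.3 and 26.8 TPM and did not pass (limma adjusted p = 0.0908), but was called lower under both other scalings, at -0.48 (adjusted p = 0.00343) and -0.35 (adjusted p = 0.0150).

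Of 18 other regulators tested, of 20 listed, 8 were higher and 4 lower. The balance turned under the other scalings, as it did over all genes. It was 5 higher and 6 lower with median-of-ratios factors and 3 higher and 7 lower with quantile normalization. DEWAX, a repressor of wax genes including CER1, measured 597, 469 and 575 TPM in WT and 119, 228 and 262 TPM in sme1. No sme1 library came near the WT range, and the log2 change was -1.49 (SE 0.29, limma adjusted p = 0.00343). SHN3, an AP2-family activator of cuticle genes, rose from 0.372 ± 0.142 to 8.59 ± 0.868 TPM, and its relative SHN1 was below the filter at 0.182 and 0.141 TPM. SPL9 rose from 3.81 ± 0.0499 to 10.1 ± 0.715 TPM and WRI3, a relative of WRI4, from 6.88 ± 0.868 to 11.4 ± 0.43 TPM. MYB60, which is also a guard cell marker, fell from 16.7 ± 1.93 to 10.3 ± 0.525 TPM.

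Of the regulators named whatever their values, MYB30 measured 29.1 and 24.4 TPM, MYB16 35.6 and 34.8 TPM, and the ubiquitin ligase CER9 34.3 and 27.9 TPM, and none of these passed on the deposited scale. CER9 was called lower under both other scalings, at -0.56 (limma adjusted p = 0.00423) and -0.42 (adjusted p = 0.0158), and MYB30 under median-of-ratios scaling, at -0.52 (adjusted p = 0.0175). CER7, an exosome subunit that acts on CER3 transcript levels, went from 12.5 to 14.4 TPM (limma adjusted p = 0.0250) and had the opposite sign, -0.066, after median-of-ratios scaling.

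**Figure D5:**
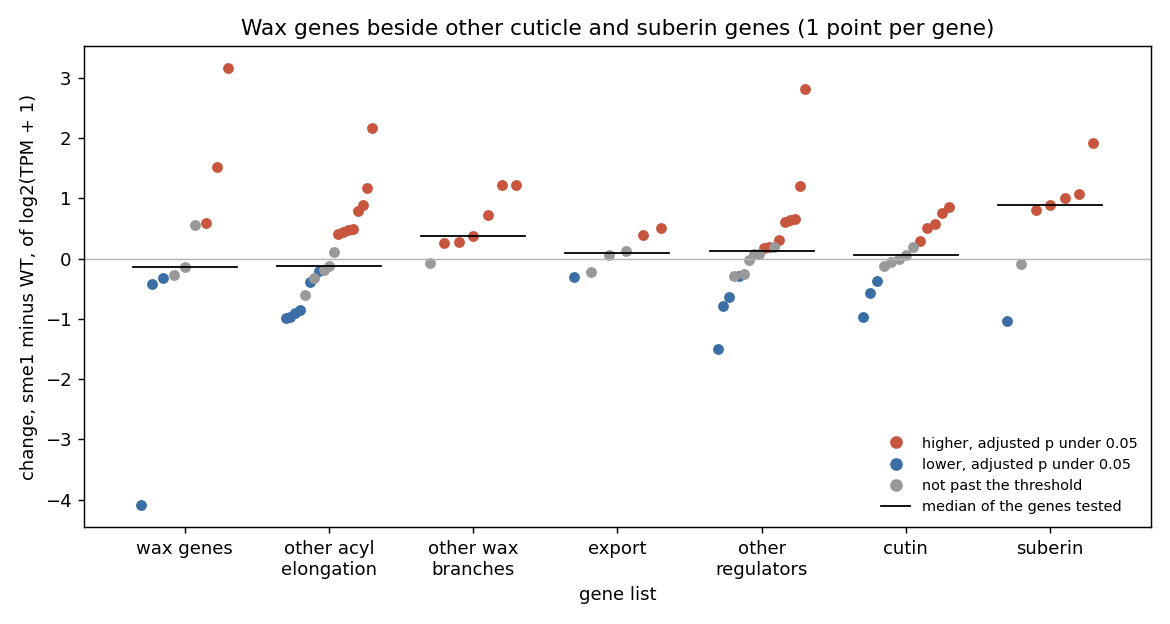
Change of each tested gene, sme1 minus WT, in log2(TPM + 1), for the wax genes and the 6 further lists; each point is a gene, colour gives the call and bars are list medians. The wax genes span -4.09 to 3.17, and their median of -0.14 is near that of the elongation list, -0.13.

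In cutin synthesis 5 of 13 tested genes, of 15 listed, were higher and 3 lower. As over all genes, the balance turned under the other scalings. It was 4 higher and 6 lower with median-of-ratios factors and 2 higher and 4 lower with quantile normalization. LACS2 rose from 14.5 ± 0.422 to 27.1 ± 1.18 TPM and DCR from 21.4 ± 0.841 to 36.9 ± 3.19 TPM. GPAT8 fell from 22.1 ± 1.58 to 10.8 ± 0.469 TPM and CYP86A8 from 10.3 ± 0.896 to 7.68 ± 0.143 TPM. In suberin synthesis, a root polymer made from related precursors, 5 of 7 tested genes, of 10 listed, were higher and 1 lower. Of the 5, 1 averaged under 1 TPM in WT and passed the filter only through sme1. Among all tested genes 47.3% were higher and 20.0% lower. ASFT rose from 4.73 ± 1.37 to 20.6 ± 4.26 TPM, FAR5 from 4.55 to 10.1 TPM and FAR4 from 2.07 to 5.39 TPM, and FAR1 fell from 61.1 ± 7.05 to 29.3 ± 1.88 TPM. The root marker sums given above moved the same way as most of these genes, and their part in the suberin values was not tested.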

How the data were processed

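The values are TPM that the authors deposited per gene and per transcript, with their transcript annotation. Per the submitters' processing notes, STAR 2.5.2b and kallisto 0.43.0 were used, with no role given for either, and the labels' protocols give a stranded mRNA kit and paired reads of 150 bases. Each gene equals the sum of its transcripts within 0.01 TPM. TPM keep no depth, so depth per library is unknown and no intervals or floors are given.

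Genes and transcripts averaging 1 TPM or more over 6 libraries were tested with limma 3.58.1 (trend, R 4.3.3) on log2(TPM + 1), sme1 minus WT, no covariate, Benjamini-Hochberg adjustment over all features and a threshold of 0.05. Usage was tested with diffSplice (Simes). Introns were tested on log2((R + 0.1)/(S + 0.1)), where R + S averaged 2 TPM or more and the share 0.02 to 0.98. The pipelines were tested on simulated data. The deposited annotation names no build; 99.44% of its 141522 introns have GT or GC and AG ends on TAIR10.1. Sequences come from that genome, searched with Python 3.11.15.

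Every wax gene was named, and of each further list up to 4 genes with the smallest adjusted p, plus 7 chosen regulators and enzymes (DEWAX, SHN1, MYB30, MYB16, CER7, CER9, LACS1). The wax genes and lists were chosen with earlier results of these data known.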

Additional observations from a re-analysis of the deposited data

How the results depend on the processing

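Changes of CER1, CER3, CER2, WSD1 and WRI4 kept their direction and call under all 14 alternatives (scaling, filter, pseudocount, trend, replicate block and each library left out). CER4 passed without the trend (0.56, adjusted p = 0.0485) and with the replicate block (0.56, adjusted p = 0.0143). CER6 was 0.32 with median-of-ratios scaling and did not pass. MYB94 passed at -0.52 with that scaling and at -0.57 with quantile normalization. Leaving out 1 library at a time gave 0.37 to 0.71 for CER4, which passed without the first sme1 library, -0.31 to -0.025 for MYB96 and -0.35 to -0.19 for MYB94. With quantile normalization 6218 genes were higher and 7201 lower, and with median-of-ratios scaling 7103 were lower. Of the further cuticle genes 22 were then higher and 25 lower, and 28 lower, respectively. The usage test called WRI4 and CER1 with a pseudocount of 0.1. With transcripts of at least 0.5 TPM it called WRI4 and WSD1 (diffSplice adjusted p = 1.74e-05), but not CER1 (0.0855). WSD1 could be tested only with that filter, and its WT level is under 1 TPM. With libraries left out the test called 1 to 2: CER3 joined WRI4 without the third WT library and CER1 without the first sme1 library. Introns called higher numbered 0 with a lower minimum of 1 TPM, 0 with the replicate block, 0 with any library left out and 5 with a pseudocount of 0.5, under which 3 were lower. The calls at 0.5 are not read, because that constant is large beside sums under 1 TPM. The 92-base WSD1 intron reached -1.71 under the alternatives, though its retained share was 0% in WT and 9.59% to 10.3% in sme1. Its retained sum was 0 TPM in WT, so the added constant sets that sign. Same-numbered libraries deviated together only weakly (r of 0.017, 0.056 and 0.032), though each correlated best with its own number, so the numbers were not treated as pairs. The block gave 9159 genes higher and 3896 lower, against 9505 and 4024. Where a call changed, the cause was not tested. TPM carry no counts, so no limit of depth could be set for genes under 1 TPM, such as MAH1.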
